A study of Mus musculus with 20 samples.

Results

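The genes described here encode the proteasome: the subunits of its 20S core and 19S cap, its activators and inhibitor, and the chaperones that build it. They were all the genes whose symbol starts with Psm, a letter from a to g and a number, each read by its single-gene probe set with the highest mean signal. This gave 49 of the 18193 genes with a single-gene probe set, and 48 of the 49 were bright enough to be tested among 15762 genes. The symbol also caught 2 genes that are no subunits, Psmc3ip, which serves meiotic recombination, and Psme3ip1. RNA of whole testes from mice aged 8 weeks was measured on Affymetrix Mouse Genome 430 2.0 arrays, where a probe set is a group of short probes for 1 transcript. The inbred strains C57BL/6 and AKR/N were each sampled as controls and, following 15 min of heat at 43 °C, after 8, 10, 12 and 24 h, which makes 10 groups of 2 arrays. The labels give the controls no time of their own, so heat and the time of sampling cannot be told apart. Nor do they name separate animals for the arrays of a group. The p-values set differences against the spread between arrays of a group, which may be technical and hold no variation between animals.

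The proteasome degrades proteins tagged with ubiquitin. Its 20S core is a stack of rings, with alpha subunits in the outer rings, which gate the channel, and beta subunits in the inner rings, of which Psmb5, Psmb6 and Psmb7 carry the cutting sites. The 19S cap unfolds the substrate with the ATPases of the Psmc group and binds and trims ubiquitin with subunits of the Psmd group. Germ cells from meiosis on build a form of the core in which the alpha subunit Psma8 stands in for Psma7, and they use the activator Psme4 when histones are removed. Cells exposed to interferon replace the cutting subunits by Psmb8, Psmb9 and Psmb10 and make the activator subunits Psme1 and Psme2.

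Shown are the promoters of 4 of the members whose change at 24 h was called in both strains. These 4 moved in opposite directions, Psma7 and Psmb3 up and Psmb5 and Psmd9 down. Psma1, Psme3 and Psmg4 were also called in both strains, but their promoters are not shown. Each promoter shown is the 250 bases before the gene's start, from RefSeq with build GRCm38.p6, 5′ to 3′ on the gene's strand. Psma7 lies on the minus strand at chr2:180042465-180042714, Psmb3 on the plus strand at chr11:97703184-97703433, Psmb5 on the minus strand at chr14:54617996-54618245 and Psmd9 on the plus strand at chr5:123227940-123228189. Capitals mark matches on either strand to CCAAT (the CCAAT box), TGACNNNGC (the antioxidant response element core), GAANNTTC or TTCNNGAA (paired heat shock element units), GAAANNGAA (an interferon response element) or TTCNNNGAA (a gamma-activated site).
Psma7: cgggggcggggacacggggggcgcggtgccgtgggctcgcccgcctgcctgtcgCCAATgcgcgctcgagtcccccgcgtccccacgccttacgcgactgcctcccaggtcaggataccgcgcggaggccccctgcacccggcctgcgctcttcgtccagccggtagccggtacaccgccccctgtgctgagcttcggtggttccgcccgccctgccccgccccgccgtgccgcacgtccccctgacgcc
Psmb3: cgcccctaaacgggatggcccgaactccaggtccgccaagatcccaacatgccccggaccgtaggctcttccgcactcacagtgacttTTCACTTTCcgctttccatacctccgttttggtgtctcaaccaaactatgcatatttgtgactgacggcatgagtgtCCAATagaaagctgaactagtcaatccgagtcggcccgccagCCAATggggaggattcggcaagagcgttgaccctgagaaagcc
Psmb5: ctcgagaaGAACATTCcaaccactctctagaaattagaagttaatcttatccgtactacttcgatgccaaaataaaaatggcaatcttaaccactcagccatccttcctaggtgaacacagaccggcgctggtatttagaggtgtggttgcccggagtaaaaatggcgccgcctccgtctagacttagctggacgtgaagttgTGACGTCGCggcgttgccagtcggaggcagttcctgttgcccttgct
Psmd9: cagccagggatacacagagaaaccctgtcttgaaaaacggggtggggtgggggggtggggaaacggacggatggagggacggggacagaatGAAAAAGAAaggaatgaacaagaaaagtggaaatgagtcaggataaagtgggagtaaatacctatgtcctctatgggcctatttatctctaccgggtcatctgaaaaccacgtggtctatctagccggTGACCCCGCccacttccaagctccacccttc
Entries for 41 of the 49 members were matched. CCAAT stood in 16 of these 41 promoters (39%), against 37.5% of the 27025 gene promoters in the table. TGACNNNGC stood in 5 of the 41 (12.2%, against 11.5% of all) and one of the paired heat shock units in 5 (12.2%, against 14.5%). GAANNTTC and TTCNNGAA can overlap TTCNNNGAA, which stood in 2 (4.88%, against 8.13%), and GAAANNGAA stood in 3 (7.32%, against 8.18%). Psmb3 had 2 CCAAT boxes, at 85 to 81 and 43 to 39 bases before the start, and Psma7 had 1, at 196 to 192. Psmb5 and Psmd9 each had a TGACNNNGC match, at 47 to 39 and 31 to 23 bases before the start. GAAANNGAA matched Psmb3 at 162 to 154 and Psmd9 at 159 to 151, and GAANNTTC matched Psmb5 at 242 to 235. Of the promoters not shown, Psma1 and Psme3 matched CCAAT, Psme3 also a paired heat shock unit, and Psmg4 matched none of these motifs. TGACNNNGC also matched Psmb6, which fell in C57BL/6 at 24 h, Psmc6, which rose in AKR/N, and Psmd12, which was not called. Any part of these motifs in the changes was not tested.

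Changes are log2 differences between group means of log2(signal + 16), which understate the change of dim genes. Errors are standard errors (SE) from a limma model over all 20 arrays, and a gene was called at a Benjamini-Hochberg adjusted p under 0.05 over all genes tested. At 8 h no member was called in either strain. All genes gave 0.0888% higher and 0% lower calls in C57BL/6 and 0.0254% higher and 0.0127% lower in AKR/N, and limma's unadjusted p was under 0.05 for 1 member in C57BL/6 and 6 in AKR/N. By 10 h 3 members had fallen in C57BL/6 and none had risen, against 5.19% lower and 6% higher among all genes. AKR/N had 0 calls at 10 h, against 1.44% higher and 1.19% lower, and 9 members had an unadjusted limma p under 0.05. The percentages count adjusted calls, so they are no background for the unadjusted counts. The share of all genes at the unadjusted threshold is not given here, so nothing is read from those counts. The 3 falls at 10 h each ended without 1 array or another: without C57BL/6 10 h replicate 2 or either control array 0 members were called, and without 10 h replicate 1, 1 was.

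At 12 h C57BL/6 had 2 members up (4.17%) and 7 down (14.6%), where all genes had 9.71% up and 9.38% down, and AKR/N had 2 up and 0 down, where all genes had 3.8% up and 3.2% down. The risers were Psmb8 and Psmc2, and the fallers were Psma8, Psmb5, Psmc3ip, Psmc5, Psmd9, Psmg1 and Psmg4. The C57BL/6 count rested on single arrays: 1 member stayed called without 12 h replicate 2, 2 without control replicate 1 and 1 without control replicate 2. C57BL/6 12 h replicate 2 had the highest actin 3'/5' signal ratio, which is higher in degraded RNA, at 3.57, where its partner had 2.52 and the other 18 arrays had 1.87 to 2.92. Its part in the 12 h values was not tested. The AKR/N risers were Psma7 and Psmd11. In AKR/N 0 members stayed called without 12 h replicate 1 or control replicate 1 and 1 without 12 h replicate 2, and 4 were called without either C57BL/6 12 h array.

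The largest counts came at 24 h. In C57BL/6 13 members rose (27.1%) and 10 fell (20.8%), against 21.4% and 16.6% of all genes tested. In AKR/N 7 rose (14.6%) and 4 fell (8.33%), against 12.3% and 11.1%. With 2 arrays a group, non-overlap was common. In C57BL/6 both 24 h arrays lay above both controls for 6382 of the 15762 genes and below them for 4846. In AKR/N these numbers were 4958 and 5105. Of the 48 members, 21 lay above and 17 below in C57BL/6, and 22 and 10 in AKR/N. Arrays that lie apart are therefore no mark of a change by themselves. The actin 3'/5' ratio was 2.14 to 2.46 in C57BL/6 controls and 2.58 to 2.84 at 24 h, and 2.39 to 2.92 and 2.14 to 2.17 in AKR/N, so it set the 24 h arrays apart from controls in opposite directions. Its part in the 24 h values was not tested. The median change of the 48 members was 0.04 in C57BL/6 and 0.20 in AKR/N, where all genes had medians of 0.08 and −0.01. The ratio of 2.92 was that of AKR/N control replicate 1. Its median log2 value over the members was 9.269, where its partner had 9.394 and all arrays ran from 9.218 to 9.808. It was the lowest array for Psma5, Psma7, Psmb4, Psmc1, Psmc6, Psmd5, Psmd11 and Psmd12, and the highest for Psma8 and Psmg4. The part of this array in the AKR/N median was not tested. When arrays were centred on their medians instead of kept as deposited, the C57BL/6 median over all genes tested at 24 h moved from 0.077 to −0.044, the share of higher among all calls from 56.2 to 43.7%, and the members from 13 up and 10 down to 4 up and 10 down. The 9 rises lost were those of Psma1, Psma2, Psmc2, Psmd1, Psmd11, Psmd14, Psme1, Psme3 and Psme4. The same centring left 2 rises and 3 falls in AKR/N, ending the calls of Psma1, Psma5, Psmc6, Psmd5, Psme3 and Psmd9. Without 1 of the C57BL/6 24 h or control arrays 10 to 13 members were called there. In AKR/N 5 were called without 24 h replicate 1, 3 without 24 h replicate 2, 4 without control replicate 1, and 7 without any 1 of the 8 h arrays of either strain.

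**Figure D1:**
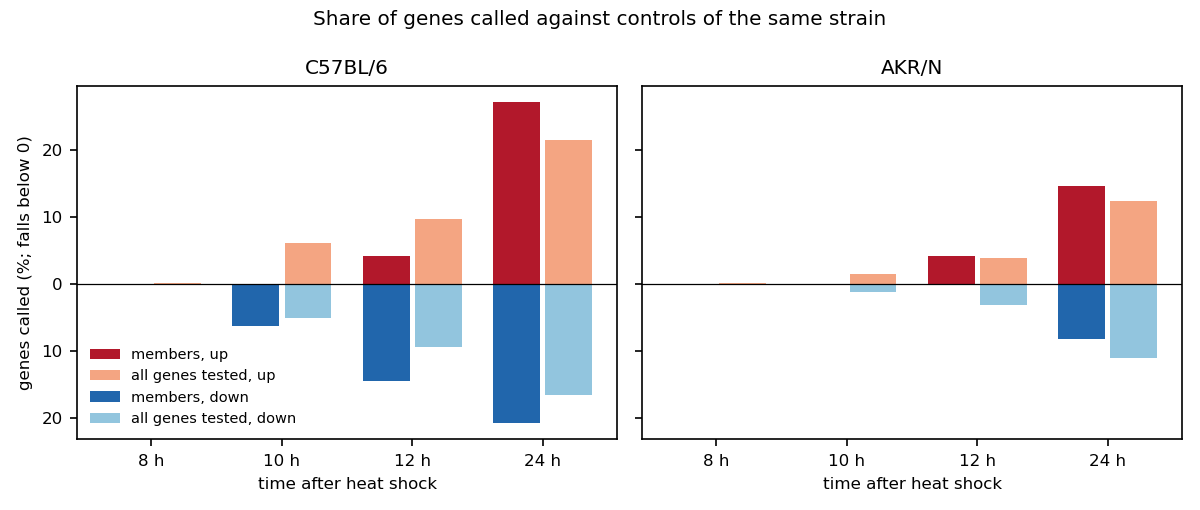
Bars give the share of genes called higher (above 0) or lower (below 0) against controls of the same strain, in percent, by hours after heat shock, for the 48 proteasome genes tested and for all 15762 genes. At 24 h the bars of members and of all genes differ little: 27.1 and 21.4% higher in C57BL/6, and 14.6 and 12.3% in AKR/N.

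**Figure D2:**
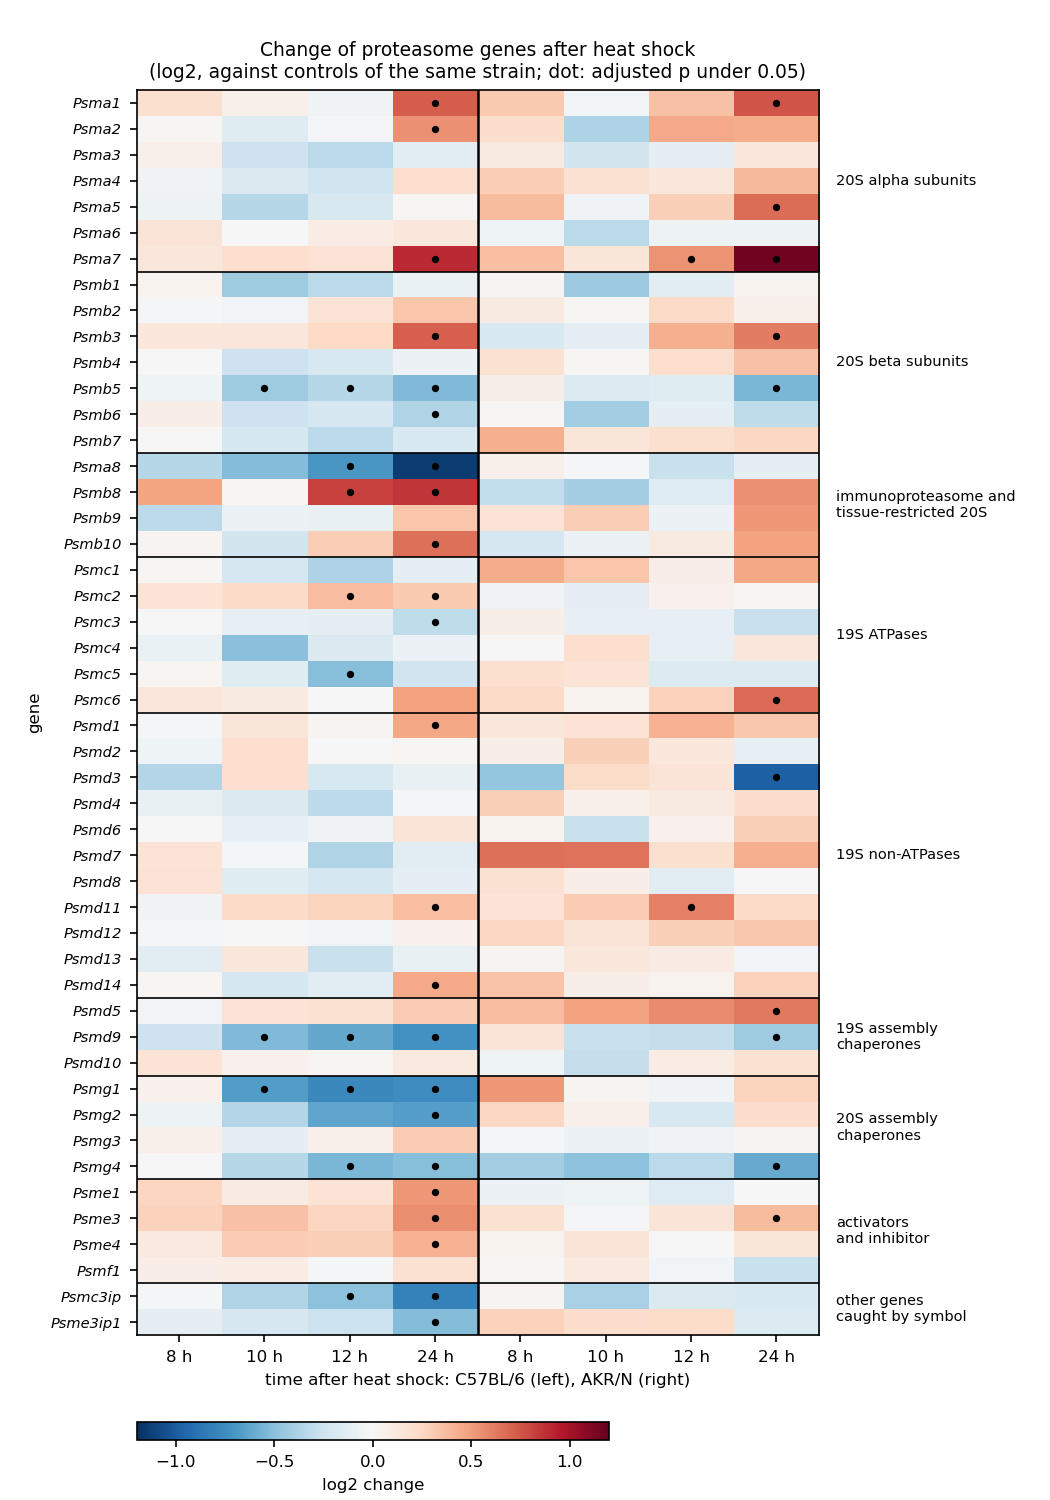
Each row is a member, grouped by role, and each column a time after heat shock; colour gives the log2 change against controls of the same strain and a dot marks an adjusted p under 0.05. Psma7 has the darkest red (0.89 in C57BL/6 and 1.16 in AKR/N at 24 h) and Psma8 in C57BL/6 the darkest blue (−1.14).

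Among all genes tested at 24 h, 21.4% rose and 16.6% fell in C57BL/6, and 12.3% and 11.1% in AKR/N. These shares are the background for the counts of every group and list below, none of which was tested as a set. Of the 7 alpha subunits of the standard 20S core, 3 rose and 0 fell at 24 h in each strain. They were Psma1, Psma2 (0.55, adjusted p = 0.0252) and Psma7 in C57BL/6 and Psma1, Psma5 and Psma7 in AKR/N. The Psma2 call ended without any 1 of the 4 arrays compared (adjusted p up to 0.136), and in AKR/N Psma2 changed by 0.44 and was not called. Psma7, an alpha subunit of the ring that gates the channel, had the largest rise among the chosen probe sets of the members in both strains. In C57BL/6 its signal was 331 and 317 in controls, 349 and 367 at 8 h, 376 and 376 at 10 h, 391 and 345 at 12 h and 604 and 627 at 24 h. AKR/N gave 266 and 327 in controls, 372 and 393 at 8 h, 329 and 328 at 10 h, 418 and 455 at 12 h and 653 and 705 at 24 h. Both 24 h arrays lay above every earlier array in each strain. The rise at 24 h was 0.89 (SE 0.12, adjusted p = 7.86e-05) in C57BL/6 and 1.16 (SE 0.12, adjusted p = 0.000145) in AKR/N. Both calls remained under all 8 alternatives and without each of the 20 arrays in turn. The other Psma7 probe set gave 0.78 and 1.17. The rise at 12 h in AKR/N was 0.54 (adjusted p = 0.0184) and ended without either 12 h array or control replicate 1 (adjusted p up to 0.135), and with median centring.

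Psma1, also of the alpha ring, had C57BL/6 signals of 498 and 421 in controls, 481 and 573 at 8 h, 542 and 420.4 at 10 h, 592 and 333 at 12 h and 767 and 766 at 24 h. The AKR/N values were 344 and 437, 476 and 498, 365 and 395, 493 and 508, and 607 and 733 at the same points. In both strains the 24 h arrays were the highest. Psma1 rose by 0.72 (SE 0.22, adjusted p = 0.019) in C57BL/6 and 0.76 (SE 0.22, adjusted p = 0.0248) in AKR/N. The C57BL/6 call ended without either 24 h array or control replicate 2 (adjusted p 0.0717 to 0.126), and the AKR/N call without 24 h replicate 2 (0.18) or control replicate 1 (0.162). A dimmer Psma1 probe set changed by 0.06 and 0.21, under 0.5 of the size, and both calls ended with the mean of all its probe sets (adjusted p = 0.0903 and 0.418). Psma5, also an alpha subunit, had AKR/N signals of 528 and 756 in controls, 788 and 868 at 8 h, 549 and 688 at 10 h, 744 and 803 at 12 h and 992 and 1042 at 24 h, again highest at 24 h. Its rise in AKR/N was 0.67 (SE 0.21, adjusted p = 0.0328), with 0.30 and −0.11 from 2 other probe sets. It ended without either AKR/N 24 h array or control replicate 1 (adjusted p 0.0839 to 0.256). C57BL/6 Psma5 signals were 986 and 973 in controls and 928 and 1051 at 24 h, which overlap, a change of 0.01.

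Psma8, the alpha subunit of germ cells, had the largest fall among the chosen probe sets of the members. In C57BL/6 its signal was 1172 and 1192 in controls, 867 and 991 at 8 h, 960.2 and 698 at 10 h, 903 and 576 at 12 h and 469 and 594 at 24 h. In AKR/N it was 1198 and 1076 in controls, 1179 and 1198 at 8 h, 1069 and 1170 at 10 h, 791 and 1118 at 12 h and 1020 and 1081 at 24 h. All heated C57BL/6 arrays lay below both controls, while AKR/N arrays at 24 h overlapped theirs. Psma8 fell by 1.14 at 24 h in C57BL/6 (SE 0.22, adjusted p = 0.00104), a call that remained under every alternative and without each array. The change in AKR/N was −0.11 (SE 0.22, adjusted p = 0.753). The difference between the strains' changes was 1.03 (SE 0.31, adjusted p = 0.0935) and did not pass. At 12 h the C57BL/6 fall of 0.70 (adjusted p = 0.0379) became 0.38 without 12 h replicate 2 (adjusted p = 0.309). It also ended without either control array or either AKR/N 8 h array, and with a pseudocount of 1. The change of Psma8 minus that of Psma7 was −0.48, −0.73, −0.87 and −2.03 at 8, 10, 12 and 24 h in C57BL/6 and −0.29, −0.17, −0.81 and −1.27 in AKR/N.

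Markers of other cells moved at the same time, as did 21.4% up and 16.6% down of all genes in C57BL/6 and 12.3% and 11.1% in AKR/N. Of 10 pachytene spermatocyte markers, 5 fell and 1 rose at 24 h in C57BL/6 and 6 fell and 0 rose in AKR/N. The summed signal of the 10 was 27031 to 27654 in C57BL/6 controls and 21564 to 22324 at 24 h, and 27899 to 28887 and 22750 to 23281 in AKR/N, with no marker of the list too dim to test. Of 10 round spermatid markers, 2 rose and 4 fell in C57BL/6 and 1 rose and 1 fell in AKR/N, and their sums were 20063 to 21112 in C57BL/6 controls and 22313 to 23745 at 24 h. In AKR/N the sums overlapped, with 15109 and 18334 in control replicates 1 and 2 and 17926 to 18127 at 24 h. Their part in the fall of Psma8 was not tested. In whole testis, fewer cells of a type and less RNA per cell cannot be told apart.

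Of the 7 standard beta subunits, 1 rose and 2 fell in C57BL/6 at 24 h, and 1 rose and 1 fell in AKR/N. The riser was Psmb3, a structural subunit without a cutting site, in both strains. Psmb3 signals in C57BL/6 were 559 and 586 in controls, 631 and 623 at 8 h, 646 and 614 at 10 h, 787 and 584 at 12 h and 988 and 910.3 at 24 h. In AKR/N they were 564 and 661 in controls, 531 and 541 at 8 h, 544 and 584 at 10 h, 792 and 860.4 at 12 h and 878 and 1007 at 24 h. Both 24 h arrays of each strain exceeded all its others. The rise was 0.71 (SE 0.14, adjusted p = 0.00142) in C57BL/6, kept under every alternative and array left out, and 0.61 (SE 0.14, adjusted p = 0.00843) in AKR/N. The AKR/N call ended without 24 h replicate 2 (0.51, adjusted p = 0.0924) or control replicate 1 (0.50, adjusted p = 0.0712). The other probe set of Psmb3 gave 0.28 in C57BL/6, under 0.5 of the size, and 0.61 in AKR/N.

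Psmb5, which carries the chymotrypsin-like cutting site, fell in both strains. C57BL/6 signals were 959 and 977 in controls, 925 and 946 at 8 h, 692 and 741 at 10 h, 782 and 739.5 at 12 h and 669 and 662 at 24 h. For AKR/N they were 1191 and 1089 in controls, 1145 and 1249 at 8 h, 1034 and 989 at 10 h, 1005 and 1058 at 12 h and 749.5 and 794 at 24 h. From 10 h on every heated array lay below the controls in both strains, and the 24 h arrays lay lowest. Psmb5 fell at 24 h by 0.53 (SE 0.10, adjusted p = 0.00137) in C57BL/6 and by 0.55 (SE 0.10, adjusted p = 0.00287) in AKR/N. Both calls remained under all alternatives and without each array. The falls at 10 h (0.43, adjusted p = 0.0205) and 12 h (0.34, adjusted p = 0.0362) in C57BL/6 ended without any 1 array of the compared groups (adjusted p up to 0.116 and 0.154), and the one at 12 h also without either C57BL/6 24 h array. Median centring ended the first and quantile normalization the second. Psmb6, which carries the caspase-like site, had C57BL/6 signals of 2294 and 2209 in controls and 1668 and 1831 at 24 h, without overlap, and fell by 0.36 (SE 0.11, adjusted p = 0.0198). That call ended without 24 h replicate 1 or either control array (adjusted p 0.0614 to 0.142). The AKR/N change of Psmb6 at 24 h was −0.30 and was not called. Psmb7, the remaining cutting subunit, changed by −0.18 in C57BL/6 and 0.24 in AKR/N and was not called.

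**Figure D3:**
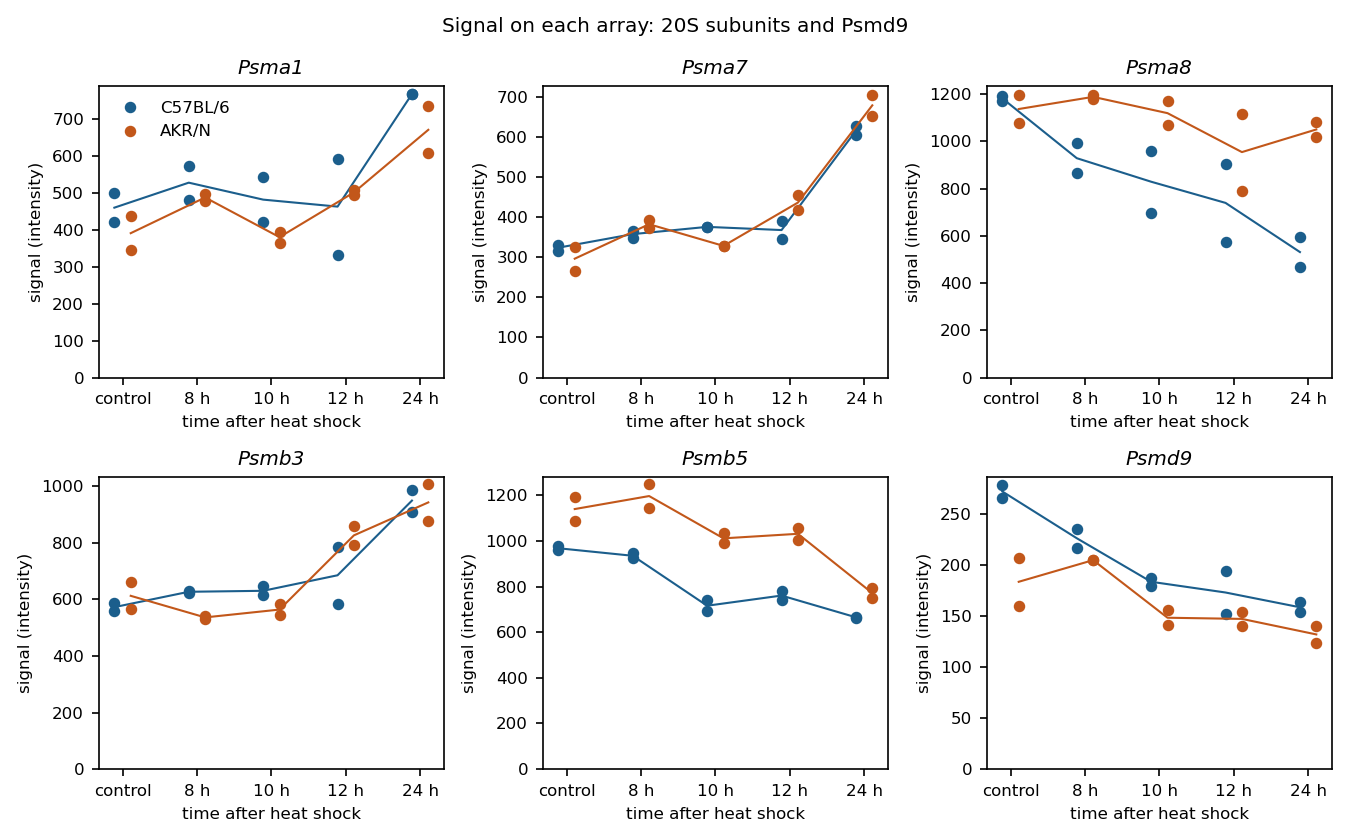
Points are the signal (intensity, linear axis from 0) on each array, 2 per group, and lines join the means, for 5 core subunits and the 19S assembly chaperone Psmd9. Psma7 stands at 604 to 705 at 24 h against 266 to 331 in controls, and Psma8 falls to 469 and 594 in C57BL/6 while AKR/N stays at 1020 and 1081.

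The interferon-inducible subunits were dim. Psmb8, which replaces Psmb5, had C57BL/6 signals of 10.8 and 7.86 in controls, 23.4 and 15.4 at 8 h, 13.3 and 6.6 at 10 h, 22.2 and 36.2 at 12 h and 24.9 and 35.5 at 24 h. Its AKR/N signals were 20.1 and 22.6, 19.8 and 9.75, 8.3 and 16.5, 16.8 and 18.3, and 33.1 and 44.9. The C57BL/6 controls lay under 17.5, the signal used as the filter, and the 24 h arrays of both strains lay above their controls. Psmb8 rose in C57BL/6 by 0.86 at 24 h (SE 0.22, adjusted p = 0.00775) and by 0.82 at 12 h (SE 0.22, adjusted p = 0.0213), and had 0.55 (SE 0.22, adjusted p = 0.0884) in AKR/N at 24 h. Without 24 h replicate 2 (adjusted p = 0.0737) or control replicate 2 (0.0587) the C57BL/6 call at 24 h was lost, as it was when averaged with a second probe set under the filter (0.35, adjusted p = 0.104). The 12 h call ended without 12 h replicate 2 or either control array (adjusted p 0.062 to 0.163), and with median centring.

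Psmb10, which replaces Psmb7, had C57BL/6 signals of 63.9 and 54.1 in controls, 52.4 and 69.6 at 8 h, 53.3 and 43.9 at 10 h, 67.8 and 85.2 at 12 h and 101 and 104 at 24 h. AKR/N arrays read 59.7 and 39.99, 46.4 and 35.5, 47.3 and 44.8, 45.2 and 64.3, and 70.6 and 80.1. In both strains the 24 h arrays were the highest. It rose in C57BL/6 by 0.66 (SE 0.19, adjusted p = 0.0124), lost without either 24 h array or control replicate 2 (adjusted p 0.0529 to 0.0924). It had 0.49 (SE 0.19, adjusted p = 0.0746) in AKR/N. Psmb9, which replaces Psmb6, had C57BL/6 signals of 16.7 and 20.1 in controls, 7.49 and 16.4 at 8 h, 17.3 and 15.9 at 10 h, 28.9 and 7.2 at 12 h and 26.2 and 28.3 at 24 h. The AKR/N values were 31.2 and 11.5, 21.8 and 26.8, 32.5 and 24.4, 15.8 and 21.2, and 44.6 and 27.8. At 24 h the C57BL/6 arrays lay above their controls and the AKR/N arrays overlapped theirs. The changes of 0.33 (adjusted p = 0.416) and 0.52 (adjusted p = 0.227) were not called. The thymus subunit Psmb11 lay between 0.841 and 15.3 on all 20 arrays, under the filter, and was not tested.

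At 24 h 21.4% of all genes rose and 16.6% fell in C57BL/6, and 12.3% and 11.1% in AKR/N. Of 12 macrophage and leukocyte markers, 4 rose at 24 h in C57BL/6 and 3 in AKR/N, and none fell. Their summed signal was 668 to 713 in C57BL/6 controls and 1117 to 1123 at 24 h, and 861 to 1022 and 1317 to 1733 in AKR/N. Of 5 T cell markers tested none was called in either strain, and none had an unadjusted limma p under 0.05. Among the other lists, in C57BL/6 and AKR/N, 2 and 3 of 9 spermatogonial markers, 5 and 4 of 8 Sertoli cell markers and 3 and 1 of 6 endothelial markers rose, and none of these fell. Of 10 elongating spermatid markers 2 and 1 rose and none fell, with sums of 75556 to 80729 in C57BL/6 controls and 90740 to 92534 at 24 h, and 81407 to 83461 and 79559 to 80326 in AKR/N. Of 6 Leydig cell markers 3 rose and 2 fell in C57BL/6 and 0 rose and 2 fell in AKR/N, with sums of 1911 to 2151 and 2111 to 2425 in C57BL/6, and 4130 to 4279 and 2444 to 2555 in AKR/N. The part of these cells in the immunoproteasome values was not tested.

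**Figure D4:**
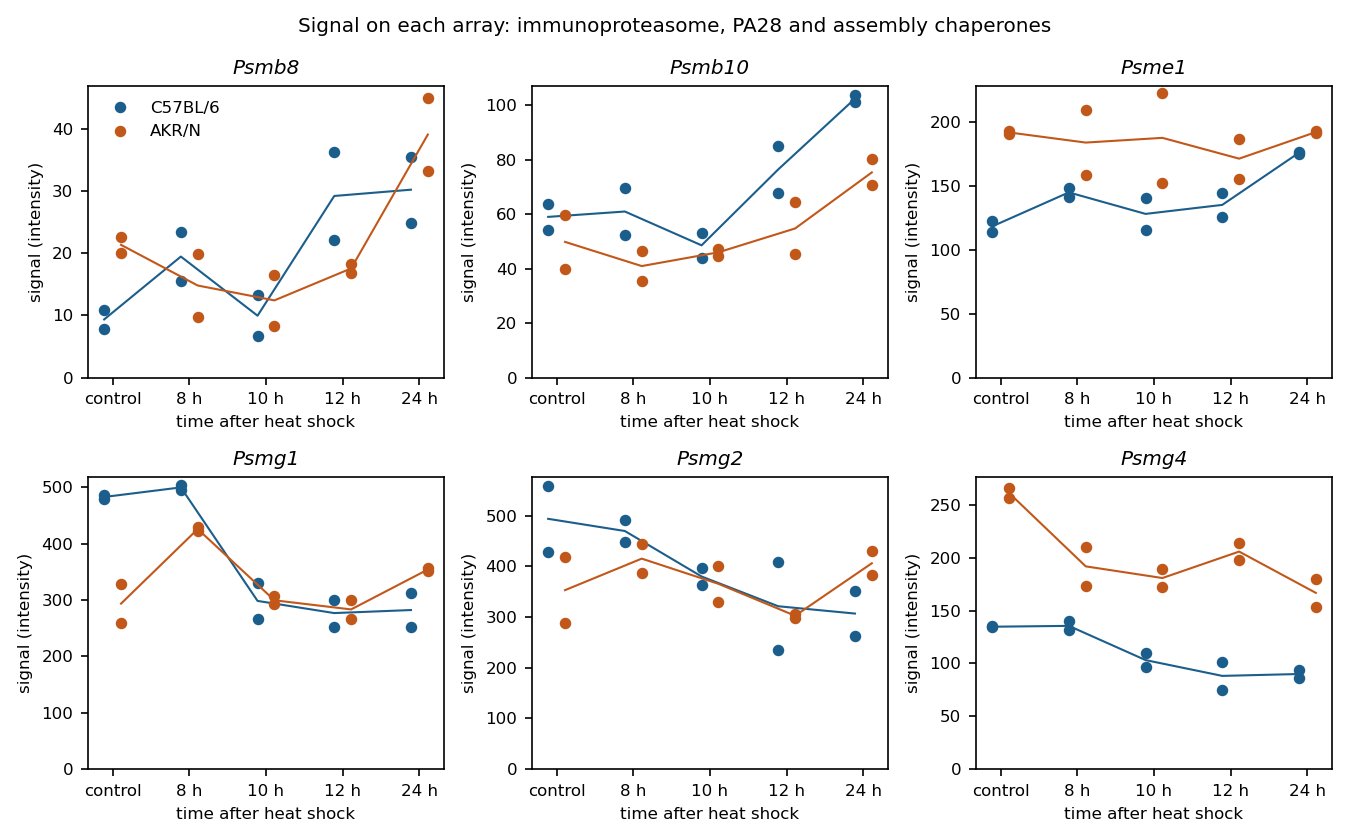
Points are the signal (intensity, linear axis from 0) on each array and lines join group means, for the immunoproteasome subunits Psmb8 and Psmb10, the activator subunit Psme1 and the assembly chaperones Psmg1, Psmg2 and Psmg4. Psmg1 in C57BL/6 drops from 479 and 487 in controls to 252 and 313 at 24 h, where AKR/N has 259 and 329 in controls and 352 and 357 at 24 h.

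Of 4 activators and inhibitors tested, 3 rose in C57BL/6 at 24 h and 1 in AKR/N, and none fell. Psme1, a subunit of the PA28 ring that opens the core without ubiquitin, had C57BL/6 signals of 123 and 114 in controls, 149 and 141 at 8 h, 116 and 141 at 10 h, 126 and 145 at 12 h and 175 and 177 at 24 h. Those of AKR/N were 193 and 191 in controls, 209.5 and 159 at 8 h, 223 and 153 at 10 h, 187 and 156 at 12 h and 193 and 192 at 24 h. The C57BL/6 arrays at 24 h stood above all its others, and both AKR/N arrays at 24 h lay within the range of its other groups. Psme1 rose in C57BL/6 by 0.52 (SE 0.17, adjusted p = 0.0285) and had 0.00 (SE 0.17) in AKR/N. The difference between the strains was −0.51 (SE 0.24, adjusted p = 0.263) and did not pass. The C57BL/6 call ended without any 1 of the 4 arrays compared (adjusted p 0.072 to 0.132) and with quantile normalization.

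Psme3, the nuclear activator subunit, had C57BL/6 signals of 1284 and 1240 in controls, 1554 and 1516 at 8 h, 1737 and 1498 at 10 h, 1607 and 1420 at 12 h and 1898 and 1834 at 24 h. The AKR/N values were 1254 and 1318, 1495 and 1426, 1231 and 1300, 1290 and 1584, and 1630 and 1725. All heated C57BL/6 arrays exceeded the controls, and in AKR/N both 24 h arrays exceeded all others. This probe set rose at 24 h by 0.56 (SE 0.12, adjusted p = 0.00317) in C57BL/6 and 0.38 (SE 0.12, adjusted p = 0.0425) in AKR/N. A second Psme3 probe set ran the other way, from 138 and 150 in C57BL/6 controls to 108 and 97.7 at 24 h and from 143 and 131 to 78.3 and 79.4 in AKR/N, changes of −0.43 and −0.69. The direction of Psme3 therefore depended on the probe set. The AKR/N call also ended without any 1 of 12 arrays (adjusted p 0.0544 to 0.209), among them all 4 compared.

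Psme4, the activator used in spermatids, had C57BL/6 signals of 2523 and 3033 in controls, 3284 and 2749 at 8 h, 3497 and 3355 at 10 h, 3351 and 3394 at 12 h and 3740 and 3663 at 24 h. In AKR/N they were 2631 and 2845, 2926 and 2697, 2818 and 3285, 2559 and 2932, and 3007 and 3063. At 24 h the arrays of both strains lay above their controls. Psme4 rose in C57BL/6 by 0.42 (SE 0.13, adjusted p = 0.0244), and the call ended without either 24 h array or control replicate 1 (adjusted p 0.0769 to 0.206). Of its 5 other probe sets, 2 gave −0.24 and −0.11 there, and the others gave 0.04, 0.24 and 0.39. The call also ended with the mean of all probe sets. The inhibitor Psmf1 had C57BL/6 signals of 2560 and 2717 in controls, 2675 and 2911 at 8 h, 2534 and 3123 at 10 h, 2589 and 2634 at 12 h and 3053 and 2949 at 24 h. In AKR/N it had 2538 and 3078, 2881 and 2761, 3160 and 2918, 2713 and 2746, and 2403 and 2241. The 24 h arrays lay above the controls in C57BL/6 and below them in AKR/N, but the changes of 0.19 and −0.27 and their difference of −0.45 (SE 0.18, adjusted p = 0.196) were not called. Its 3 other probe sets gave −0.37, −0.22 and 1.31 in C57BL/6 and 0.19, −0.15 and 0.69 in AKR/N.

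Of the 6 ATPases of the 19S cap, 1 rose (Psmc2) and 1 fell (Psmc3) in C57BL/6 at 24 h, and 1 rose (Psmc6) in AKR/N. The changes of Psmc2 (0.32, adjusted p = 0.0359) and Psmc3 (−0.30, adjusted p = 0.0373) in C57BL/6 were each lost without any 1 of the 4 arrays compared (adjusted p up to 0.195 and 0.223), and that of Psmc3 also without either AKR/N 8 h array. Of 2 other Psmc2 probe sets, one gave 0.29 and the dimmer one 0.04. At 24 h in AKR/N Psmc2 changed by 0.02 and Psmc3 by −0.27, neither called. Psmc6 had AKR/N signals of 404 and 530 in controls, 529 and 564 at 8 h, 447 and 508 at 10 h, 499 and 638 at 12 h and 700.4 and 803 at 24 h. C57BL/6 signals were 579 and 512 in controls, 579.9 and 621 at 8 h, 649 and 534 at 10 h, 644 and 464 at 12 h and 718 and 818 at 24 h. The 24 h arrays were the highest in each strain. Psmc6 rose in AKR/N by 0.68 (SE 0.19, adjusted p = 0.0188), which was lost without 24 h replicate 2 (adjusted p = 0.144) or control replicate 1 (0.153), and had 0.48 in C57BL/6, where it was not called.

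A second Psmc6 probe set changed by more than the chosen probe set of any member. It read 68.9 and 49.96 in C57BL/6 controls, 81.8 and 96.2 at 8 h, 211 and 162 at 10 h, 254 and 179 at 12 h and 306 and 299.7 at 24 h. In AKR/N it read 89.3 and 73.2 in controls, 67.9 and 92.7 at 8 h, 109 and 111 at 10 h, 155 and 173 at 12 h and 185 and 230 at 24 h. Every C57BL/6 array from 8 h on and every AKR/N array from 10 h on exceeded its controls. Its change at 24 h was 2.09 in C57BL/6 and 1.198 in AKR/N, and the remaining probe set gave 0.99 and 0.82, so the size of the Psmc6 change depended on the probe set while its direction did not.

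Among the 11 non-ATPase subunits of the cap that the symbol rule caught, 3 rose and 0 fell in C57BL/6 at 24 h. They were the scaffold subunit Psmd1 (0.47, adjusted p = 0.0216), the deubiquitinase Psmd14 (0.45, adjusted p = 0.0442) and Psmd11 (0.36, adjusted p = 0.0221), a lid subunit. All 3 calls ended without either C57BL/6 24 h array: the highest adjusted p for an array left out was 0.125, 0.142 and 0.149. They also ended without control replicate 1 for Psmd1, control replicate 2 for Psmd11 and any 1 of 12 arrays for Psmd14. The AKR/N changes at 24 h were 0.32 for Psmd1, 0.27 for Psmd14 and 0.23 for Psmd11, none called. Psmd11 had signals of 1736 and 1585 in C57BL/6 controls, 1643 and 1583 at 8 h, 1973 and 1918 at 10 h, 1986 and 2005 at 12 h and 2143 and 2120 at 24 h. For AKR/N they were 1382 and 1399, 1637 and 1480, 1824 and 1633, 2266 and 1978, and 1599 and 1676. Both strains exceeded their controls from 10 h on, and AKR/N was highest at 12 h, where Psmd11 rose by 0.60 (SE 0.11, adjusted p = 0.00892). That call ended without 12 h replicate 1 or control replicate 1 (adjusted p up to 0.093) and with the mean of all probe sets. At 12 h in AKR/N the other Psmd11 probe sets past the filter ranged from −0.28 to 0.94. The Psmd11 call in C57BL/6 at 24 h also ended with that mean, and 2 of the dimmer probe sets gave −0.10 and −0.13 there. In AKR/N at 24 h 0 non-ATPases rose and 1 fell, the lid subunit Psmd3. Psmd3 signals in AKR/N were 368 and 204 in controls, 188 and 201 at 8 h, 428 and 242 at 10 h, 402 and 234 at 12 h and 150 and 114 at 24 h. Both 24 h arrays lay lowest, and the 2 arrays of the control, 10 h and 12 h groups were far apart. The change of −0.98 (SE 0.32, adjusted p = 0.0396) became −0.58 (adjusted p = 0.3) without control replicate 1, and the call ended without any 1 of 7 arrays. C57BL/6 Psmd3 signals at 24 h, 258 and 188, overlapped the controls at 208 and 266. Psmd13 was not called at 24 h, with −0.09 in C57BL/6 and −0.04 in AKR/N. A dimmer Psmd13 probe set gave −1.74 and −0.82, and another gave 0.17 and −0.25, so its change depended on the probe set. Psmd7, a lid subunit, had the largest AKR/N changes at 8 and 10 h, 0.66 and 0.65 (adjusted p = 0.283 and 0.0902), neither called. Its dimmer probe sets gave 0.04 and −0.40 at 8 h and −0.44 and −0.49 at 10 h in AKR/N.

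Of 3 chaperones that assemble the 19S base, 1 fell in C57BL/6 at 24 h, and 1 rose and 1 fell in AKR/N. Psmd9, which escorts a pair of the ATPases, had C57BL/6 signals of 266 and 278 in controls, 217 and 235 at 8 h, 188 and 179 at 10 h, 194 and 152 at 12 h and 154 and 163 at 24 h. For AKR/N they were 160.1 and 207 in controls, 204 and 205 at 8 h, 156 and 141 at 10 h, 140.3 and 154 at 12 h and 124 and 140.1 at 24 h. Every heated C57BL/6 array lay below both controls, as did every AKR/N array from 10 h on. Psmd9 fell in C57BL/6 by 0.53 at 10 h, 0.62 at 12 h and 0.72 at 24 h (SE 0.14 each, adjusted p = 0.0292, 0.00919 and 0.00123). In AKR/N it fell by 0.42 at 24 h (SE 0.14, adjusted p = 0.0436). The C57BL/6 24 h call remained without each array. The AKR/N call ended without any 1 of 13 arrays (adjusted p up to 0.294), the C57BL/6 10 h call without any 1 of the 4 arrays compared (up to 0.15), and the 12 h call without 12 h replicate 2 or control replicate 2 (up to 0.0844). The 2 dimmer probe sets gave 0.09 and −0.27 in C57BL/6 and −0.03 and −0.26 in AKR/N at 24 h, and the mean of all 3 was not called in either strain (−0.30, adjusted p = 0.142, and −0.24, adjusted p = 0.281).

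Psmd5, another base chaperone, had AKR/N signals of 96.9 and 102 in controls, 131 and 136 at 8 h, 128 and 165 at 10 h, 140.3 and 171 at 12 h and 152 and 173 at 24 h. All heated AKR/N arrays exceeded both controls. It rose in AKR/N by 0.63 at 24 h (SE 0.21, adjusted p = 0.0488), close to the threshold, and the call ended without any 1 of 16 arrays (adjusted p up to 0.239) and under 6 of 8 alternatives. In C57BL/6 its signals were 110 and 132 in controls and 140.4 and 166 at 24 h, a change of 0.31 that was not called.

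The 4 chaperones that assemble the 20S core work as the pairs Psmg1 with Psmg2 and Psmg3 with Psmg4. In C57BL/6 3 of the 4 fell at 24 h and none rose, and in AKR/N 1 fell. Psmg1 had C57BL/6 signals of 479 and 487 in controls, 505 and 495 at 8 h, 330.3 and 267 at 10 h, 301 and 253 at 12 h and 252 and 313 at 24 h. Its AKR/N signals were 259 and 329 in controls, 422 and 430.1 at 8 h, 292 and 307 at 10 h, 299.8 and 267 at 12 h and 352 and 357 at 24 h. The C57BL/6 arrays from 10 h on lay below the controls, and the AKR/N arrays at 24 h lay above theirs. Psmg1 fell in C57BL/6 by 0.67 at 10 h, 0.77 at 12 h and 0.75 at 24 h (SE 0.15 each, adjusted p = 0.0132, 0.00366 and 0.00141). The calls at 12 and 24 h remained under every alternative and without each array, and the one at 10 h ended without 10 h replicate 2 or either control array (adjusted p up to 0.11). AKR/N had 0.27 at 24 h (SE 0.15, adjusted p = 0.216).

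Psmg2 followed with C57BL/6 signals of 559 and 429 in controls, 492 and 448 at 8 h, 397 and 363 at 10 h, 408 and 234 at 12 h and 262 and 352 at 24 h. AKR/N arrays read 288 and 418, 444 and 386, 401 and 329.8, 306 and 299, and 383 and 429.5. From 10 h on the C57BL/6 arrays lay below the controls, and the AKR/N arrays at 24 h overlapped theirs. It fell in C57BL/6 by 0.66 at 24 h (SE 0.24, adjusted p = 0.0425), which was lost without any 1 of 12 arrays (adjusted p up to 0.273) and with a pseudocount of 1. A second probe set gave −0.70 in C57BL/6 and 0.34 in AKR/N, and a dim one −0.19 and −0.49. Psmg4 had C57BL/6 signals of 136 and 134 in controls, 139.9 and 131 at 8 h, 96.7 and 109.7 at 10 h, 102 and 74.7 at 12 h and 93.99 and 86.04 at 24 h. Those of AKR/N were 266 and 256, 174 and 210.2, 172 and 189.6, 214 and 198, and 154 and 180. All heated AKR/N arrays lay below the controls, and all AKR/N arrays lay above all C57BL/6 arrays. Psmg4 fell at 24 h by 0.51 (SE 0.14, adjusted p = 0.0124) in C57BL/6 and 0.61 (SE 0.14, adjusted p = 0.00923) in AKR/N. The first call ended without C57BL/6 24 h replicate 2 or either control array (adjusted p 0.0547 to 0.0784). The second ended without AKR/N 24 h replicate 1 (0.0675) or control replicate 1 (0.0521). Both ended when a second probe set under the filter was averaged in (−0.24, adjusted p = 0.124, and −0.22, adjusted p = 0.192).

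The genes caught by symbol alone both fell in C57BL/6 at 24 h. Psmc3ip had signals of 2263 and 2030 in controls, 1934 and 2339 at 8 h, 1752 and 1584 at 10 h, 1532 and 1514 at 12 h and 1136 and 1306 at 24 h. From 10 h on its arrays lay below both controls. It fell by 0.81 (SE 0.14, adjusted p = 0.000613), kept under every alternative and without each array. In AKR/N it had 1731 and 2001 in controls, 1879 and 1925 at 8 h, 1303 and 1536 at 10 h, 1566 and 1726 at 12 h and 1528 and 1764 at 24 h. The last overlap the controls (−0.18, not called), and a second probe set gave −0.60. Psme3ip1 had C57BL/6 signals of 353 and 396 in controls, 326 and 367 at 8 h, 338 and 310.3 at 10 h, 378 and 254 at 12 h and 245 and 269 at 24 h. Those of AKR/N were 259 and 245, 314 and 302, 264 and 328, 287 and 304, and 239 and 208, lowest at 24 h. It fell by 0.52 (SE 0.17, adjusted p = 0.0251) in C57BL/6, and that call ended without either 24 h array or control replicate 2 (adjusted p up to 0.148). Without these genes, 13 proteasome genes rose and 8 fell in C57BL/6 and 7 rose and 4 fell in AKR/N, of 46.

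The strains used separate controls, so their changes at 24 h can be set side by side. Psma1, Psma7, Psmb3 and Psme3 rose in both, which is 30.8% of the C57BL/6 rises and 57.1% of the AKR/N rises, where all genes tested shared 43.8% and 76.3%. For Psme3 this holds for the chosen probe set, while a second one gave −0.43 in C57BL/6 and −0.69 in AKR/N. Psmb5, Psmd9 and Psmg4 fell in both, 30% and 75% of the falls, where all genes shared 45% and 67.3%. No member was called in opposite directions. The change had the same sign in 34 of 48 members (70.8%), and in 71.6% of all genes. Across the 48 members, which are not independent replicates, the changes of the strains correlated with r = 0.61, and across all genes with r = 0.64.

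**Figure D5:**
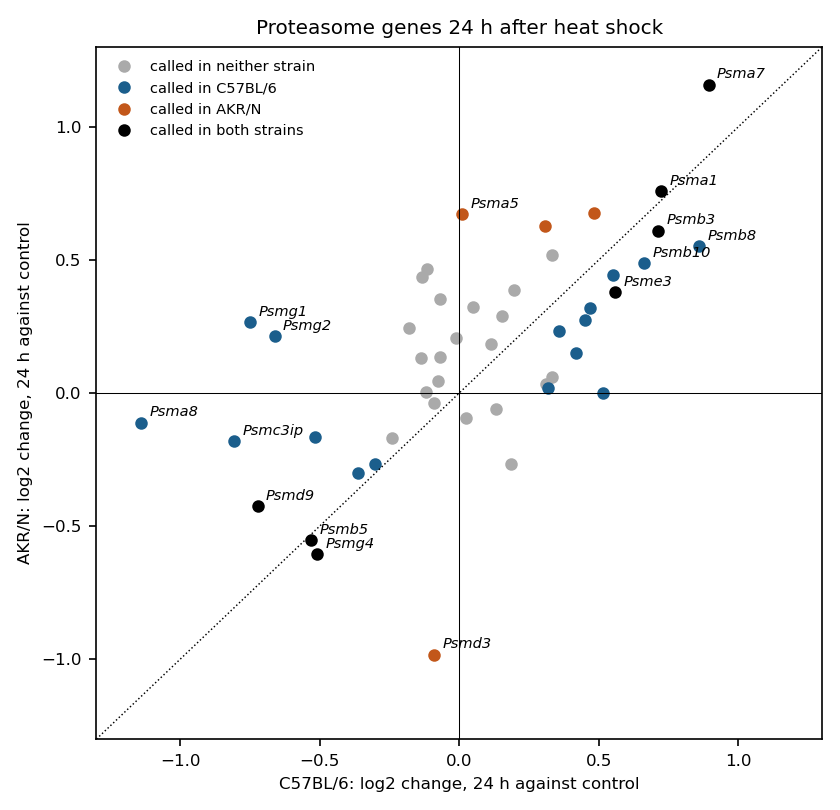
Each point is a member, placed by its log2 change at 24 h in C57BL/6 (horizontal) and AKR/N (vertical); black points were called in both strains and the dotted line marks equal changes. Psma7 lies at the upper right (0.89 and 1.16), and Psma8, Psmg1 and Psmg2 lie at the left, with C57BL/6 changes of −1.14, −0.75 and −0.66 and AKR/N changes of −0.11, 0.27 and 0.21.

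The strains' heat effects were then compared by an interaction term. At 24 h 1 member was called, Psmg1, with a change 1.02 higher in AKR/N than in C57BL/6 (SE 0.21, adjusted p = 0.0338), where all genes had 0.939% higher and 0.818% lower calls. It ended without any 1 of 9 arrays (adjusted p up to 0.141), which were both AKR/N 8 h arrays, AKR/N control replicate 1, both C57BL/6 control arrays and all 4 arrays at 24 h. It also ended with median centring (1.15, adjusted p = 0.0683) and with the replicate block (adjusted p = 0.0501). The AKR/N controls of Psmg1, at 259 and 329, lay below the C57BL/6 controls at 479 and 487, and at 24 h the strains were at 352 and 357 against 252 and 313. Psmg2, its partner, had a difference of 0.87 (SE 0.34, adjusted p = 0.176) and was not called. The test over any of the 4 times called 0 members, against 0.0825% of all genes, with limma's unadjusted p under 0.05 for 2 members. That percentage counts adjusted calls and is no background for the unadjusted count.

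Against the mean of the earlier heated groups, which share the heat shock, 8 members were higher and 3 lower at 24 h in C57BL/6, against 16.6% and 12.1% of all genes. In AKR/N 7 were higher and 3 lower, against 14% and 11%. Psma7 was higher by 0.72 (SE 0.10, adjusted p = 0.000171) in C57BL/6 and 0.81 (SE 0.10, adjusted p = 0.000182) in AKR/N, and both calls remained under every alternative and without each array, as did the fall of Psmb5 in AKR/N (0.47, SE 0.09, adjusted p = 0.00176). Psmb8 was higher by 0.84 (SE 0.18, adjusted p = 0.00484) and Psmb10 by 0.54 (SE 0.15, adjusted p = 0.0194) in AKR/N in this comparison. The first ended without AKR/N 24 h replicate 2 (adjusted p = 0.112) and the second without either AKR/N 24 h array (adjusted p up to 0.206). The C57BL/6 count was 1 without 24 h replicate 1 and 5 without 24 h replicate 2. The AKR/N count was 5 without 24 h replicate 1, 2 without 24 h replicate 2, and 6 without 8 h replicate 1 or 12 h replicate 1.

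Between the strains, 2 members were higher and 2 lower in AKR/N controls than in C57BL/6 controls, against 3.1% and 3.19% of all genes. Over the mean of all 5 conditions 5 were higher and 6 lower, against 14.9% and 12.9%. Psmg4 had the largest difference, 0.88 in controls (SE 0.14, adjusted p = 0.0019) and 0.79 over all conditions (SE 0.06, adjusted p = 5.86e-07), and both calls remained under every alternative and without each array. The sequences of the 2 strains under these probes were not used here, so a difference in RNA and a difference in how the probes bind cannot be told apart. The other 3 calls in controls were Psme1 (0.63, adjusted p = 0.0429), Psmd9 (−0.54, adjusted p = 0.036) and Psmg1 (−0.70, adjusted p = 0.0124). Psme1 ended without any 1 of 10 arrays (adjusted p up to 0.215) and Psmd9 without any 1 of 5 (up to 0.321). Psmg1 ended without AKR/N control replicate 1 or either C57BL/6 control array (up to 0.151). The count in controls was 1 without any of these last 3 arrays.

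Over all conditions Psmb5 was 0.34 above C57BL/6 in AKR/N (SE 0.05, adjusted p = 9.16e-05), and its 2 AKR/N arrays exceeded the 2 C57BL/6 arrays in each of the 5 conditions, as did those of Psme1 (0.37, SE 0.08, adjusted p = 0.0024). Psma8 was higher by 0.42 (SE 0.10, adjusted p = 0.00525), with no overlap in 3 of the 5 conditions. In controls its strain difference was −0.06 and not called. Psmc4, an ATPase, differed by 0.42 (SE 0.11, adjusted p = 0.00871), whereas a second probe set gave 0.07. Its C57BL/6 signals were 470.5 and 644 in controls, 474 and 574 at 8 h, 412 and 356 at 10 h, 528 and 449.6 at 12 h and 439 and 624 at 24 h. The AKR/N values were 639.6 and 633, 771 and 532, 681 and 796, 544 and 651, and 579 and 849, apart from C57BL/6 at 10 and 12 h. Psmc2 was lower by 0.29 (SE 0.05, adjusted p = 0.000511). Its C57BL/6 signals were 4268 and 4054 in controls, 4702 and 4640 at 8 h, 4915 and 4877 at 10 h, 5251 and 5533 at 12 h and 4966 and 5425 at 24 h. In AKR/N they were 4061 and 3926, 3893 and 3837, 3562 and 3857, 3841 and 4449, and 3900 and 4198, lower than C57BL/6 without overlap in 4 of the 5 conditions, and its other bright probe set also gave −0.29. Psmb10 (−0.29, adjusted p = 0.0177) and Psmd9 (−0.28, adjusted p = 0.00419) were lower in AKR/N too. The calls of Psma8, Psmb5, Psmb10, Psmc2, Psmc4, Psmd9 and Psme1 remained without each array. The 3 smallest differences were Psme3ip1 (−0.22), Psme4 (−0.17) and Psmd11 (−0.15), and they ended without any 1 of 15, 15 and 14 arrays (adjusted p up to 0.0851, 0.101 and 0.083).

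Genes that belong to or work with the proteasome but are no members were read from lists. The shares of all genes that rose and fell at 24 h were 21.4% and 16.6% in C57BL/6 and 12.3% and 11.1% in AKR/N. Of 12 transcription factors and regulators of proteasome genes that were tested, 3 rose in C57BL/6 at 24 h and 2 in AKR/N, and none fell. Nfe2l2, the antioxidant factor NRF2, rose by 1.15 (adjusted p = 3.21e-05) in C57BL/6 and 0.60 (adjusted p = 0.00679) in AKR/N, where the call ended without 24 h replicate 2 or control replicate 2 (adjusted p up to 0.0618). Of 12 ubiquitin shuttles and partners of the segregase Vcp, 5 rose and 1 fell in C57BL/6 and 2 rose and 2 fell in AKR/N. Median centring ended 3 of the 5 C57BL/6 rises, those of Ddi1 (adjusted p = 0.114), Ubqln1 (0.0969) and Ufd1 (0.189). Sqstm1, the autophagy receptor p62, rose by 1.36 (adjusted p = 2.98e-05) in C57BL/6 and 0.57 (adjusted p = 0.0189) in AKR/N, where the call ended without 24 h replicate 2 or either control array (up to 0.148). The shuttle Ubqln2 rose by 1.08 (adjusted p = 3.59e-05) and 1.22 (adjusted p = 0.000161), and the Vcp cofactor Nploc4 fell by 0.91 (adjusted p = 0.000369) and 0.96 (adjusted p = 0.00105). The C57BL/6 call of Sqstm1 and both calls of Ubqln2 and Nploc4 remained without each array.

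Of 12 proteasome-associated genes, 2 rose and 2 fell in C57BL/6 at 24 h and 2 rose in AKR/N. A faller was Sem1, a non-ATPase subunit of the cap that the symbol rule did not catch. It fell by 0.49 (adjusted p = 0.00534) in C57BL/6, and by 0.62 (adjusted p = 0.00967) with median centring. The call was lost without C57BL/6 24 h replicate 2. Usp14, the deubiquitinase bound to the cap, rose by 0.88 (adjusted p = 0.00185) in C57BL/6, kept without each array, and by 0.77 (adjusted p = 0.00878) in AKR/N, which ended without 24 h replicate 2 or control replicate 2 (adjusted p up to 0.0663). Of 8 genes of antigen processing, which loads peptides cut by the proteasome onto MHC class I, 4 rose and 1 fell in C57BL/6 and 1 rose and 1 fell in AKR/N. B2m, the light chain of MHC class I, rose by 0.83 (adjusted p = 0.00116) in C57BL/6, kept without each array, and by 0.62 (adjusted p = 0.0141) in AKR/N, which ended without 24 h replicate 2 or control replicate 2 (adjusted p up to 0.134). The rises in C57BL/6 included Tap1 and Erap1, whose control signals there, 16.3 and 10.45 for Tap1 and 10.8 and 8.17 for Erap1, lay under the filter of 17.5, so they passed it only through other groups. Tap1 at 24 h read 59.3 and 33.0 in C57BL/6 and 11.95 and 2.2 in AKR/N, against 8.64 and 3.05 in AKR/N controls. The Tap1 call ended without C57BL/6 24 h replicate 1 or control replicate 2 (adjusted p up to 0.107), and that of Erap1 with median centring (0.0691) and without any 1 of 6 arrays (up to 0.164). Tapbp, which holds MHC class I at the peptide transporter, fell by 0.53 (adjusted p = 0.00622) and 0.62 (adjusted p = 0.00567), each lost without 24 h replicate 2 of its strain (0.0736 and 0.0724).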

How the data were processed

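RNA of 20 testis samples was read on 20 arrays. The deposited values are probe-set signals of unit intensity, as read from the values. The software of the authors was not given in the sources used here. Trimmed of 2% at each end, every array had a mean of 125.001, so arrays had been scaled alike. Median signals ran from 24.9 to 34.9, and replicates correlated with r from 0.97 to 0.988 across genes. The number of arrays limits the precision.

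Of 45101 probe sets, 64 controls were left out, and the chip annotation gave 1 gene for 34945, several for 932 and none for 9160. Genes were read by the single-gene probe set with the highest mean of log2(signal + 16) and tested where a group mean reached 5.07, the 40th percentile of probe sets (signal 17.5). Of the 103 probe sets of the 49 members, other ones past the filter existed for 22 members.

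limma 3.58.1 in R 4.3.3 fitted 1 mean per group to all 20 arrays with empirical Bayes moderation (prior and residual degrees of freedom 3.54 and 10), tested on simulated data first. Every adjusted p is such a value over 15762 genes. Figures used matplotlib 3.10.9 and pandas 2.3.3 in Python 3.11.15.

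The labels do not say whether replicate numbers pair samples between groups, and the main model had no replicate block. Deviations of same-numbered arrays correlated from −0.28 to 0.30 over 45 pairs of groups, 4 of them over 0.1. That does not settle whether some groups were paired. The 8 alternatives were pseudocounts of 1 and 64, no filter, median centring, quantile normalization, the mean of all probe sets of a gene, a replicate block, and trended robust variances. Each array was also left out in turn, whereby a lone array is assumed to vary like the other groups.

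The members, the lists and the tests were chosen with earlier results of these data known. Values in every array are given for Psma8, the immunoproteasome subunits, the activators and inhibitor, and up to 6 called members per direction in the 24 h, strain and interaction comparisons, with other probe sets where they ran the other way or came to under 0.5 of the change.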

Additional observations from a re-analysis of the deposited data

Results flagged for a closer look

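Psmg1, a chaperone of 20S core assembly, differed between the strains in its response at 24 h by the test of the difference itself. The change in AKR/N exceeded that in C57BL/6 by 1.02 on the log2 scale (SE 0.21, limma adjusted p = 0.0338). The call was lost with median centring (adjusted p = 0.0683), with the replicate block (0.0501) and without any 1 of 9 arrays (up to 0.141). Both C57BL/6 arrays at 24 h were below their controls, and both AKR/N arrays were above theirs. The strains' controls differed by −0.70 before any heat.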

How the results depend on the processing

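Of the 85 calls of members over 10 comparisons, 21 remained under all 8 alternatives and without each of the 20 arrays, and the directions that reversed did so only with the mean of all probe sets: Psme3 at 24 h (−0.11 in C57BL/6, −0.20 in AKR/N) and the strain differences of Psmd11 (0.0074) and Psme4 (0.0019). Median centring gave 14 members called at 24 h and 1 at 10 h in C57BL/6, 5 at 24 h and 1 at 12 h in AKR/N, 7 and 6 for 24 h against the earlier times, 2 between controls and 0 for the interaction. A pseudocount of 64 gave 5 (C57BL/6 10 h), 3 (AKR/N 10 h), 17 (AKR/N 24 h) and 2 (interaction), and the mean of all probe sets gave 1 and 7 (AKR/N 12 and 24 h). Trended robust variances gave 7 (C57BL/6 10 h), 3, 4 and 18 (AKR/N 10, 12 and 24 h), 16 (AKR/N 24 h against earlier times) and 3 (interaction). With the replicate block 22 members were called in C57BL/6 and 8 in AKR/N at 24 h. The block ended the interaction call of Psmg1 (adjusted p = 0.0501, 0 members called) and moved no other count by over 1.5 times. Leaving out arrays gave, in C57BL/6, 0 to 0 members at 8 h, 0 to 3 at 10 h, 1 to 9 at 12 h, 10 to 24 at 24 h and 1 to 12 for 24 h against the earlier times. In AKR/N it gave 0 to 0 at 8 and 10 h, 0 to 4 at 12 h, 3 to 13 at 24 h and 2 to 13 for 24 h against the earlier times. It gave 1 to 6 between controls, 8 to 12 over all conditions, 0 to 1 for the interaction at 24 h and 0 to 0 at any time. A lost call with fewer arrays follows in part from the smaller number of samples, and for the other settings the cause was not tested. Signals near the filter, as those of Psmb8 and Psmb9, limit what could be called.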

Other observations

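Psme2, the partner of Psme1 in the PA28 ring, is read only by a probe set that it shares with Psme2b and so was not among the members. That shared probe set gave C57BL/6 signals of 199.5 and 153 in controls, 149 and 161 at 8 h, 167 and 134 at 10 h, 203 and 207 at 12 h and 299 and 309 at 24 h. AKR/N signals were 181 and 199 in controls, 142 and 145 at 8 h, 178 and 157 at 10 h, 313 and 243 at 12 h and 367 and 339.5 at 24 h. In both strains the 24 h arrays were the highest, and in AKR/N the 12 h arrays also lay above the controls. These values were not tested.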
